A study of Mus musculus with 16 samples.

Results

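The large histone gene cluster of the mouse lies on chromosome 13, and its members here are all open-chromatin peaks that overlap chr13:21700000-23800000 (build mm10), a window of 2.1 Mb. It took in 1108 of the 386636 peaks of 16 libraries (0.287%). Peaks sharing 1 bp or more were joined across libraries, which gave 75 of the 37108 regions of the series, and 72 of the 75 were called in 2 or more libraries. The members were chosen by position alone, not by any measured value.

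The peaks come from ATAC-seq, in which a transposase cuts open DNA, on 10000 sorted haematopoietic stem cells (HSCs) of male mice per library. There were 4 groups of 4 libraries: young donors before transplantation (young pre), old donors before it (old pre), and HSCs recovered from recipients of young or of old HSCs (young post and old post). Young donors were 8 to 12 weeks old, with 3 to 4 of them pooled per replicate, and old donors were 24 months old, with 1 per replicate. For the post groups, young mice received lethal irradiation, 1000 HSCs and 300000 helper marrow cells, and HSCs were taken after 3 months from the pooled marrow of 5 such recipients. The series design ties each post library to the pre library of the same donors, by age and number. No label states a sort on a donor marker after transplantation, so cells of the recipients or helpers in the post libraries cannot be told apart from donor cells. Every post library was transposed on a later day than every pre library, so stage and day cannot be told apart either.

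Replication-dependent histone genes supply the core histones H2A, H2B, H3 and H4 and the linker histone H1, which package newly copied DNA. They are short, lack introns and a poly(A) tail, lie close together, and are transcribed mainly in S phase under NPAT, in nuclear bodies that form on the cluster itself. Most HSCs of an adult mouse are out of the cell cycle, and transplantation makes them divide.

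The peaks of each library were listed separately by the submitters. The lists held 5687 to 32530 peaks on standard chromosomes, and the 3 shortest were old pre 4 (5687), young pre 4 (9614) and old post 4 (14008). The reads behind each list were not used here, so a region without a peak is "not called" at that library's depth, not closed. Many histone and tRNA genes are near-identical copies, and how reads that match several copies were treated is not given in the sources used here. Column 7 of a list scores each peak by an area, its significance summed along its length. Since it is not comparable between libraries, it is given as a percentile, the percentage of the library's own peaks with a smaller value. Of 8 HSC marker genes, 3 to 8 had a peak at or within 1 kb in each library, with the fewest in old pre 4. All 8 had one in each young post library. Of the markers of other cell types reported here, 1 of 4 T cell, 1 of 5 granulocyte and monocyte, and 2 of 4 stromal and endothelial genes were called in any library. Those called were Cd4 in 13 libraries, Csf1r in 15, and Col1a1 and Pecam1 in 14 each, while Cd3e, Mpo and Cdh5 were among those called in none.

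The promoters below show what the histone peaks cover. For each histone family, the first promoter by position that lies wholly within a region called in all 16 libraries was taken from RefSeq (GRCm38.p6), and the bases before the start are printed 5′ to 3′. A peak covered the start itself in all 16 libraries at each gene chosen except H3c10, where it did so in 15. The H2A and H2B genes chosen, H2ac13 and H2bc13, face away from each other, so the stretch between their starts is shown once, on the strand of H2ac13. Capitals mark CCAAT on either strand (the CCAAT box). They also mark TATAAA, the TATA box, and AAACACA, the box typical of H1 promoters. The octamer ATTTGCAT was searched as well and is in none of these stretches. The places are chr13:23738657-23738806, plus strand for H1f2, chr13:21716184-21716411, plus strand for H2bc13 and H2ac13, chr13:21717478-21717627, plus strand for H3c10, and chr13:23530894-23531043, plus strand for H4c8.
H1f2: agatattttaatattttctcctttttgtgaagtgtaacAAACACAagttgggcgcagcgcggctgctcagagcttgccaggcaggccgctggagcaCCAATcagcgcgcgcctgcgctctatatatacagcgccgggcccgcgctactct
H2bc13-H2ac13: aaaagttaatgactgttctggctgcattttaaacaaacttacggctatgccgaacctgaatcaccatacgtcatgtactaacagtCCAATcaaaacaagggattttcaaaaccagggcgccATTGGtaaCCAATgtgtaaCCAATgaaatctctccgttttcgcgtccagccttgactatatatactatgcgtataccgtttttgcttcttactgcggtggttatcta
H3c10: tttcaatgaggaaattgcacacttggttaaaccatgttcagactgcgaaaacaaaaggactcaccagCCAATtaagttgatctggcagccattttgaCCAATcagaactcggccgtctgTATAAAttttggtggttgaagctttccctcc
H4c8: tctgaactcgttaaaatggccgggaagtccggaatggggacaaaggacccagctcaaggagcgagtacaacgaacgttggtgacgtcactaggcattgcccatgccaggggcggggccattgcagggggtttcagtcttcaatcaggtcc

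The RefSeq table held 50 promoters, from 250 bases before to 50 after the start, of 49 of the 54 histone genes in the window. CCAAT, read on both strands, was in 42 of the 50 (84.0%), against 37.4% of all 32851 promoters of the same length. It was in every H1, H2A, H2B and H3 promoter of the table, but in 3 of 11 H4 promoters, where H4c8 has none. TATAAA was in 29 of 50 (58.0%, against 13.6%), and AAACACA in 5 of 6 H1 promoters (83.3%, against 7.18%). ATTTGCAT, known from H2B promoters as the binding site of octamer factors, was in 5 of 14 H2B and 4 of 12 H2A promoters, against 1.74% of all promoters. It was in none of the H1, H3 and H4 promoters. H2A and H2B promoters overlap in most cases, so their matches are in part the same letters. No letters other than these were searched, and a match is not a binding site.

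Peaks of the window followed the genes. The 54 histone genes (6 H1, 14 H2A, 14 H2B, 9 H3 and 11 H4, of which 52 are protein-coding) stand in 3 groups separated by over 100 kb. The first, chr13:21715711-21837530, holds 19 histone genes and had 4 to 14 peaks per library. The second, chr13:22035122-22043658, holds 5 and had 2 to 4. The last, chr13:23531044-23764412, holds 30, among them 5 of the 6 H1 genes, and had 18 to 29. Old pre 4 had the fewest peaks in the first and last groups, and tied for the fewest in the second with young pre 4.

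Among the other genes of the window, the Vmn1r genes were called in no library, and the tRNA and other coding genes only in part. No peak of any library fell in chr13:22051785-23368505, a stretch of 1316721 bp, or 62.7% of the window. It holds all 75 Vmn1r genes of the window, 36 of them protein-coding, which encode pheromone receptors of the vomeronasal organ, and 9 tRNA genes. Of the 79 tRNA genes in the window, 41 had a peak at or within 1 kb in any library, and 3 had one in all 16. Of these 3, n-TMcat9 was called through the region of H4c8. The share of tRNA genes called elsewhere is not given here, so these counts cannot be read as particular to the window. Of 11 other protein-coding genes, 8 were called at least once. Each library called 2 to 8 of them, against 24.1% to 63.1% of all coding genes other than the window's histone genes. Zfp322a, a zinc finger gene, was called in 16 libraries, Abt1, a nucleolar protein gene, in 15, and Hfe, the haemochromatosis gene, in 13. The olfactory receptor gene Olfr1359 and Trim38 were called in none.

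**Figure D1:**
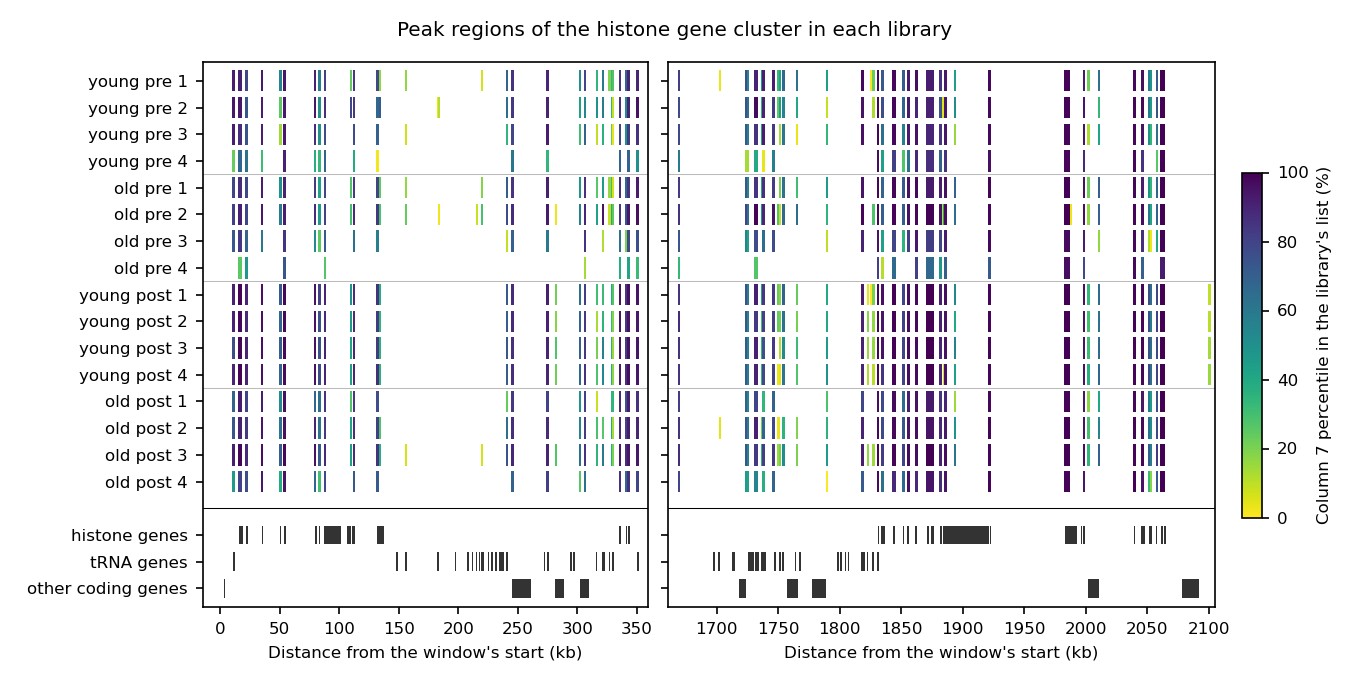
Regions of the window in each library, against the distance from the window's start in kb, with the peak-free stretch of 1316721 bp left out between the panels. Colour is the percentile of column 7 in the library's own list, narrow regions are widened to be visible, and gene bars are RefSeq spans (the widest histone bars are long gene models such as H2bc6). Most regions at histone genes are dark and present in nearly all rows, while many at tRNA genes are paler and drop out in old pre 4, young pre 4 and old post 4. There are exceptions both ways, such as n-TSgct5 (median percentile 90.9, in 16 libraries) and H2ac24/H4bc24 (35.5, in 10).

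Regions at histone genes were called in more libraries, and ranked higher, than regions at tRNA genes. Of the 75 regions, 37 lay at or within 1 kb of a histone gene, 27 at tRNA genes, 9 at other coding genes and 2 at none of these. Of the 37 histone regions, 19 were called in all 16 libraries and 27 in at least 15, with a median percentile of 85.9 and a median merged width of 1845 bp. Of the 27 tRNA regions, 2 were called in all 16 and 7 in at least 15, with a median percentile of 28.2 and a median merged width of 785 bp. In all, 22 of the 75 regions were called in all 16 libraries, and 16 were called in 15. Of the 37108 regions of the series, 5262 were called in all 16. The missing library of those 16 was old pre 4 at 15 and young pre 4 at 1.

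Histone promoters were overlapped by a peak more often than other promoters. Overlap with any part of the promoter was counted here, whether or not the peak reached the start. Of the 50 promoters, a peak overlapped 49 in each of young pre 1 and 2 and old pre 2. The same held in all 4 young post libraries and in old post 2 and 3. A peak overlapped 45 in young pre 3, 39 in young pre 4, 48 in old pre 1 and 42 in old pre 3. The count was 28 in old pre 4, 47 in old post 1 and 45 in old post 4. Of 21213 promoters of coding genes other than the window's histone genes, 19.4% to 51.8% were overlapped in each library. The cluster's share was higher in 16 of 16 libraries, by 36.6 to 54.6 percentage points and 46.6 on average (exact sign flips over 8 donors, two-sided, p = 0.0078, the smallest they can give; adjusted over 3 measures, 0.0078). Peaks at the histone genes were also wider than peaks at gene ends elsewhere in 16 of 16 libraries, by 285 bp on average (72.0 to 631.5 bp; the same p). Their median percentile was higher in 16 of 16 libraries, by 16.2 points (8.14 to 24.4; the same p). Histone genes that lie close together share peaks, and these comparisons were added after the data had been seen.

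By family, a peak covered the start in all 16 libraries for 2 of 6 H1 promoters, 8 of 12 H2A, 12 of 14 H2B, 1 of 7 H3 and 4 of 11 H4. In at least 15 libraries it did so for 4 H1, 8 H2A, 12 H2B, 5 H3 and 9 H4 promoters. The start of H1f6, the testis-specific H1 gene, was covered in 0 of 16 libraries, and it was the only promoter of the 50 without a call. H1f6 counts as called by the 1 kb rule only through the region of its neighbour H4c3.

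The highest point of the peak, its summit, took a different place by family. The median summit lay at -79.0 bp, before the start, at H2A genes, at -93.8 bp at H2B genes and at -77.0 bp at H3 genes. At H4 genes it lay at 31.0 bp, after the start, and 8 of 11 H4 promoters had their median summit after the start, against 0 of 12 for H2A and 0 of 14 for H2B. Most H2A and H2B genes face away from each other, often under 1 shared peak. A summit between their starts lies before the start of both genes, so the H2A and H2B counts are not independent. For H1 genes the peaks fell in 2 kinds. At H1f3 and H1f1 the highest peak near the gene had its median summit at -26.0 and -59.0 bp. At H1f5, H1f4 and H1f2 it lay at 1112, 860.0 and 955.5 bp after the start, while these genes are 794, 782 and 725 bp long, so the summit lay past the far end of the gene. This was so in 15 of 15 libraries with a peak at H1f5, 16 of 16 at H1f4 and 15 of 16 at H1f2, where old post 1 had its summit at -33 bp. Where 1 peak spans several genes, as at H4c1, H3c3 and the second RefSeq start of H2bc6, the summit can lie far from a given start (-810.5, -1057 and -604 bp).

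**Figure D2:**
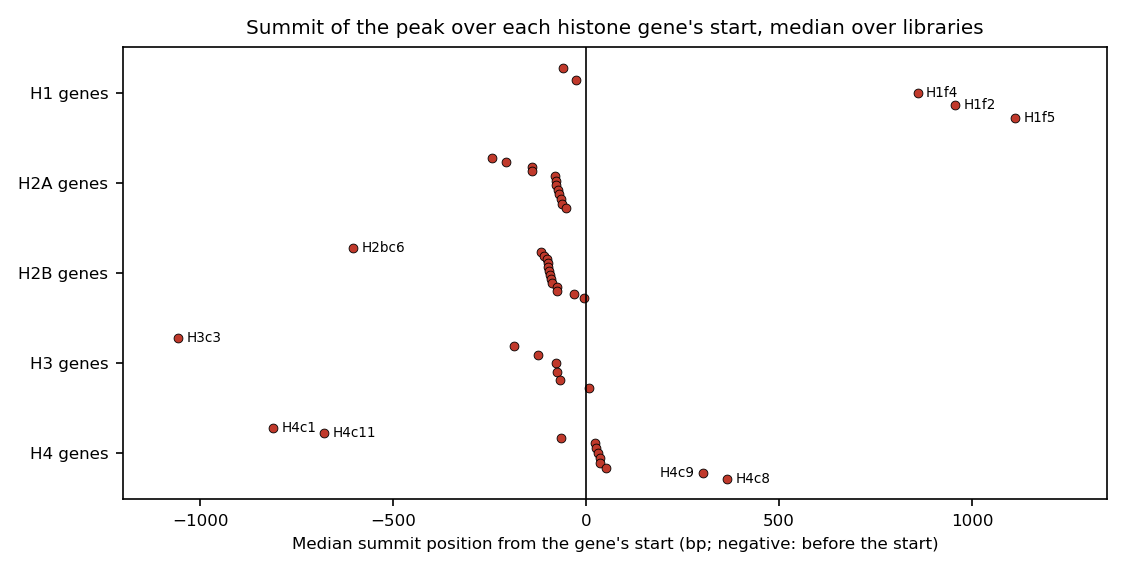
Position of the summit from the gene's start in bp, 1 point per promoter (median over the libraries whose peak covers that start), by histone family. H2A, H2B and most H3 points sit just before 0, most H4 points just after it, and H1f4, H1f2 and H1f5 at 859 to 1111 bp.

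Among the H2A and H2B genes of the promoter table, 9 pairs face away from each other, with 164 to 268 bp between starts (median 180). H2ac6/H2bc4 and H2ac14/H2bc14 are not counted, as H2bc4 and H2ac14 are not in that table. In 7 of the 9 pairs 1 peak spanned both starts in all 16 libraries, as over the H2bc13 and H2ac13 stretch printed above (229 bp between starts). The exceptions were H2bc23/H2ac23, spanned in 11 libraries, and H2ac24/H4bc24, spanned in 8, where H4bc24 is RefSeq's symbol for an H2B gene.

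The 4 histone regions ranked highest hold the linker genes H1f1, H1f4 and H1f2 or a pair of H2A and H2B genes. The region of H4c1, H3c1 and H1f1 (chr13:23760133-23764675) had the highest median percentile, 99.7, with 99.7, 99.6, 99.4 and 99.5 for young pre, 99.5, 99.7, 99.3 and 92.3 for old pre, 99.7, 99.7, 99.8 and 99.8 for young post, and 99.6, 99.7, 99.7 and 99.8 for old post. Old pre 4 was the lowest library, and the other 15 lay between 99.3 and 99.8. The region of H2ac6 and H2bc4 (chr13:23682137-23686749) had percentiles of 98.8, 99.0, 98.7 and 98.4 for young pre, 99.6, 99.7, 97.2 and 96.7 for old pre, 99.6, 99.7, 99.5 and 99.6 for young post, and 99.1, 99.4, 99.6 and 99.2 for old post. The region of H1f2 (chr13:23738251-23741060) had 97.9, 98.7, 98.3 and 98.5 for young pre, 98.8, 99.0, 98.2 and 97.7 for old pre, 99.1, 99.3, 99.1 and 99.0 for young post, and 98.8, 99.0, 99.1 and 99.4 for old post. Of the 19 histone regions called everywhere, H2ac6/H2bc4 and H1f2 were the only ones whose lowest library (96.7 and 97.7) lay above the lowest of H4c1/H3c1/H1f1 (92.3). At the region of H1f4, which the long RefSeq model of H2bc6 also reaches (chr13:23620643-23622726), the percentiles were 97.9, 97.8, 98.0 and 95.7 for young pre, 99.2, 98.9, 97.7 and 72.5 for old pre, 99.2, 99.2, 99.1 and 99.0 for young post, and 98.4, 99.0, 99.2 and 98.9 for old post. Here old pre 4 lay far below the other 15, at 72.5.

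Most of the remaining regions without a facing H2A and H2B pair hold H3 or H4 genes, whose products form the core tetramer. At H4c8 (chr13:23529935-23532098) the percentiles were 97.7, 98.3, 98.3 and 96.5 for young pre, 98.4, 98.6, 95.0 and 81.6 for old pre, 98.8, 98.7, 98.7 and 98.4 for young post, and 96.2, 97.8, 98.9 and 97.2 for old post. At H4c3 (chr13:23697457-23698881) they were 93.3, 94.3, 94.3 and 88.9 for young pre, 95.8, 95.8, 92.1 and 78.2 for old pre, 96.0, 95.7, 95.3 and 95.6 for young post, and 93.9, 95.3, 96.3 and 93.8 for old post, and its width differed little, 1196 to 1420 bp. Old pre 4 was the lowest at both. The region of H2bc9 and H3c7 (chr13:23542409-23545564) had 98.2, 98.7, 97.8 and 81.3 for young pre, 98.8, 98.9, 79.7 and 66.3 for old pre, 99.3, 99.3, 99.3 and 99.0 for young post, and 97.6, 98.4, 99.2 and 88.9 for old post. Young pre 4, old pre 3, old pre 4 and old post 4 were the low ones there. H3c6 (chr13:23561262-23563621) had 96.7, 89.7, 95.3 and 88.8 for young pre, 97.7, 98.1, 94.1 and 80.6 for old pre, 97.7, 97.4, 96.9 and 97.2 for young post, and 95.7, 96.7, 96.8 and 88.1 for old post. The region of H3c3 and H2bc3 (chr13:23745079-23747626), which also holds the pseudogene H2ac5-ps, had 96.6, 98.1, 95.3 and 85.6 for young pre, 92.3, 97.2, 87.1 and 69.4 for old pre, 98.9, 98.9, 99.0 and 98.8 for young post, and 93.9, 97.8, 98.9 and 95.3 for old post. Old pre 4 was the lowest library at both, at 80.6 and 69.4. H4c4 (chr13:23581007-23583194) had 85.4, 73.7, 84.9 and 69.8 for young pre, 92.0, 95.5, 79.5 and 46.8 for old pre, 92.2, 91.0, 90.003 and 90.6 for young post, and 84.4, 88.4, 90.8 and 87.8 for old post, where old pre 2 ranked above every other library. The start of H2bc6 (chr13:23584860-23586767) had 93.4, 94.4, 94.1 and 85.9 for young pre, 96.1, 97.0, 92.2 and 70.1 for old pre, 96.6, 95.0, 95.5 and 96.2 for young post, and 90.1, 93.7, 96.7 and 94.7 for old post.

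The regions over neighbouring H2A and H2B genes follow. H2ac15/H2bc15 (chr13:21752991-21755016) had 94.2, 93.6, 93.4 and 90.6 for young pre, 90.6, 91.6, 84.6 and 73.6 for old pre, 97.8, 97.9, 97.7 and 97.3 for young post, and 96.2, 95.7, 97.7 and 95.2 for old post. H2ac11/H2bc11 (chr13:22042041-22044581) had 90.1, 90.4, 83.0 and 68.0 for young pre, 85.8, 93.7, 78.3 and 41.3 for old pre, 96.7, 95.6, 95.8 and 96.5 for young post, and 92.3, 92.3, 94.2 and 86.1 for old post. H2ac12/H2bc12 (chr13:22034832-22036946) had 83.0, 85.2, 80.02 and 68.3 for young pre, 86.1, 83.4, 63.0 and 38.6 for old pre, 95.1, 94.5, 94.8 and 93.1 for young post, and 88.1, 88.2, 93.2 and 85.7 for old post. These pairs encode the partners of the H2A-H2B dimer. H2ac22/H2bc22 (chr13:21786728-21787989) had 81.3, 86.4, 77.2 and 68.5 for young pre, 79.2, 80.6, 72.4 and 27.3 for old pre, 89.95, 88.9, 89.9 and 89.2 for young post, and 84.8, 84.3, 88.0 and 78.3 for old post. H2ac14/H2bc14 (chr13:21721097-21722851), where RefSeq's promoter table holds H2bc14 alone, had 79.2, 73.7, 75.0 and 62.2 for young pre, 78.0, 79.1, 66.9 and 46.5 for old pre, 89.7, 88.1, 89.7 and 90.01 for young post, and 80.4, 83.5, 88.1 and 76.1 for old post. The region of H2bc13, H2ac13 and H3c10 (chr13:21714803-21718261) had 91.3, 94.0, 87.6 and 67.2 for young pre, 87.1, 91.3, 83.6 and 25.6 for old pre, 99.2, 98.3, 98.4 and 98.9 for young post, and 92.6, 91.0, 98.5 and 80.4 for old post. In each of these 6 regions the 4 young post libraries lay above all 8 pre libraries, and old pre 4, the shortest list, was the lowest library. The share of all regions with this order is not given here, so it cannot be read as particular to these pairs. Of the 5262 regions of the genome called in all 16 libraries, 98.8% had a higher mean list percentile after transplantation.

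Some neighbouring genes were under separate peaks in some libraries and under 1 long peak in others. The widest region of the window (chr13:23570188-23576928, 6741 bp) holds H2ac8, H2bc8, H2bc7, H2ac7 and H3c4, 2 facing pairs and an H3 gene. Its widest peak per library measured 1920, 1510, 1418 and 1163 for young pre, 1672, 4765, 1249 and 698 for old pre, 6741, 4740, 6650 and 6699 for young post, and 1574, 1563, 4816 and 1257 for old post (bp). It was 4740 bp or more in 4 of 4 young post, 1 of 4 old post and 1 of 8 pre libraries. Its percentiles were 92.4, 90.8, 89.8 and 86.4 for young pre, 92.9, 99.5, 82.3 and 66.6 for old pre, 99.9, 99.8, 99.9 and 99.8 for young post, and 93.2, 94.8, 99.8 and 94.5 for old post. The region of H2ac10 and H3c8 (chr13:23533318-23535948) had peak widths of 1372, 1123, 849 and 608 for young pre, 999, 1079, 365 and 239 for old pre, 2631, 2485, 2466 and 1413 for young post, and 1125, 1144, 1345 and 832 for old post (bp). Its percentiles were 72.0, 76.6, 63.5 and 43.1 for young pre, 68.1, 70.7, 42.7 and 11.3 for old pre, 96.2, 94.7, 95.5 and 85.9 for young post, and 77.8, 78.0, 82.8 and 63.6 for old post, with the lowest mean over the pre libraries of the 19 histone regions called everywhere, though in young pre 2 others were lower. Young post 1, 2 and 3 stood apart, with peaks of 2466 to 2631 bp over both genes. The next widest regions were H2ac6/H2bc4 (4613 bp, peaks of 1363 to 4613 bp) and H4c1/H3c1/H1f1 (4543 bp, peaks of 1008 to 4328 bp).

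The comparison of old with young HSCs asked whether the cluster differed with age before transplantation. Per library, the window held 75, 81, 73 and 46 peaks in young pre and 81, 79, 60 and 29 in old pre. Per 1000 peaks of the list this was 2.65, 3.52, 3.42 and 4.78 in young pre and 2.97, 2.59, 3.47 and 5.10 in old pre. The median width of these peaks was 1147, 914, 874 and 676 bp in young pre and 832, 951, 798 and 608 bp in old pre. Their median percentile was 71.7, 67.7, 68.3 and 58.4 in young pre and 68.1, 69.2, 63.3 and 46.8 in old pre. The groups overlapped in each measure, and the number 4 library of each age had the shortest list, the fewest and narrowest peaks and the largest share. Old minus young was -0.06 peaks per 1000 (exact permutation, two-sided, p = 0.886, adjusted 0.886), -106 bp (p = 0.4, adjusted 0.514) and -4.67 percentile points (p = 0.571, adjusted 0.643). On transposition day 2, which held both ages (3 young, 2 old), the differences were 1.09 per 1000, -275 bp and -14.2 points, and the exact permutation p cannot go below 0.1 there.

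After transplantation, the young and old groups lay apart in the share and rank of the peaks. The window held 76, 76, 76 and 74 peaks in young post and 66, 76, 79 and 61 in old post. Per 1000 peaks this was 2.34, 2.47, 2.42 and 2.31 in young post and 2.83, 2.67, 2.55 and 4.35 in old post, which do not overlap (old minus young 0.72, exact permutation p = 0.0286, the smallest 4 against 4 can give, adjusted over 9 tests 0.0514). The median percentile was 79.3, 76.6, 75.2 and 79.2 in young post and 72.7, 73.9, 73.1 and 67.6 in old post, again without overlap (-5.75 points, exact permutation p = 0.0286, adjusted 0.0514). The median width was 1141.5, 1119, 1096.5 and 1116.5 bp in young post and 900.0, 1019.5, 1102 and 791 bp in old post, where old post 3 lay within the young range (-165 bp, exact permutation p = 0.0571, adjusted 0.0857). None of the 3 passed the adjusted threshold of 0.05, but without old post 3 all of them did (0.90 per 1000, -215 bp and -6.17 points, exact permutation adjusted p = 0.0469 each). Without old post 4, the shortest list of these groups, the differences were 0.30 per 1000, -111 bp and -4.36 points (exact permutation adjusted p = 0.0703, 0.0857 and 0.0857). The young post lists held 30784 to 32530 peaks and the old post lists 14008 to 31003, and with all lists shortened to the shortest the share differed by -0.04, the width by -328 bp and the percentile by -13.9 points (exact permutation p = 1.00, 0.0286 and 0.0286, adjusted 1.00, 0.117 and 0.117). At gene ends outside the window the young and old post libraries did not overlap either, with median widths of 992 to 1023 bp and 666 to 954 bp (-156 bp) and median percentiles of 70.3 to 71.5 and 60.2 to 69.6 (-4.18 points).

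At the histone genes alone the age groups after transplantation lay further apart in width and percentile. The median width of peaks at or within 1 kb of a histone gene was 1645.5, 1432, 1506 and 1513 bp in young post and 1111, 1164, 1343.5 and 879 bp in old post. Their median percentile was 95.2, 94.5, 94.8 and 90.6 in young post and 83.0, 86.7, 89.4 and 78.3 in old post. The groups do not overlap in either measure. Old minus young was -400 bp and -9.38 points, and 0.68 peaks per 1000 (each exact permutation p = 0.0286, the smallest possible, adjusted 0.0469). On day 5 the widths were 1343.5 bp in old post 3 against 1645.5 and 1432 bp in young post 1 and 2, and on day 6 they were 879 bp in old post 4 against 1506 and 1513 bp in young post 3 and 4. In tests added after the data had been seen, the excess of the histone peaks over gene ends outside the window was 512 bp in young post and 269 bp in old post, without overlap (-244 bp, exact permutation p = 0.0286, adjusted over 6 tests 0.0429), and 22.9 and 17.7 points, where the groups overlapped (-5.20, exact permutation p = 0.0571, adjusted 0.0686). The width call was lost without any 1 young post library (-268 to -204 bp, adjusted p = 0.0686 to 0.0857), without the 3 shortest lists (-225 bp, adjusted p = 0.0625) and with lists cut to the length of the third shortest (-343 bp, adjusted p = 0.0571). Without young post 4 the excess in percentile passed (-6.42 points, exact permutation adjusted p = 0.0429). Before transplantation the excess in width was 248 bp in young and 112 bp in old libraries, also without overlap (-136 bp, exact permutation p = 0.0286, adjusted 0.0429), and with lists cut to the length of the third shortest it differed by -24.4 bp (exact permutation adjusted p = 0.743), and without the 3 shortest lists by -148.5 bp (adjusted p = 0.12, where the exact p cannot go below 0.1). Whether post minus pre differed between ages was tested over donors (4 against 4). At histone genes it was 418 bp in young and 204 bp in old donors, 16.8 and 9.91 points, and -0.99 and -0.50 peaks per 1000 (exact permutation adjusted p = 0.257, 0.257 and 0.457). For all peaks of the window the adjusted p was 0.686 for the width, 0.686 for the percentile and 0.429 for the share.

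**Figure D3:**
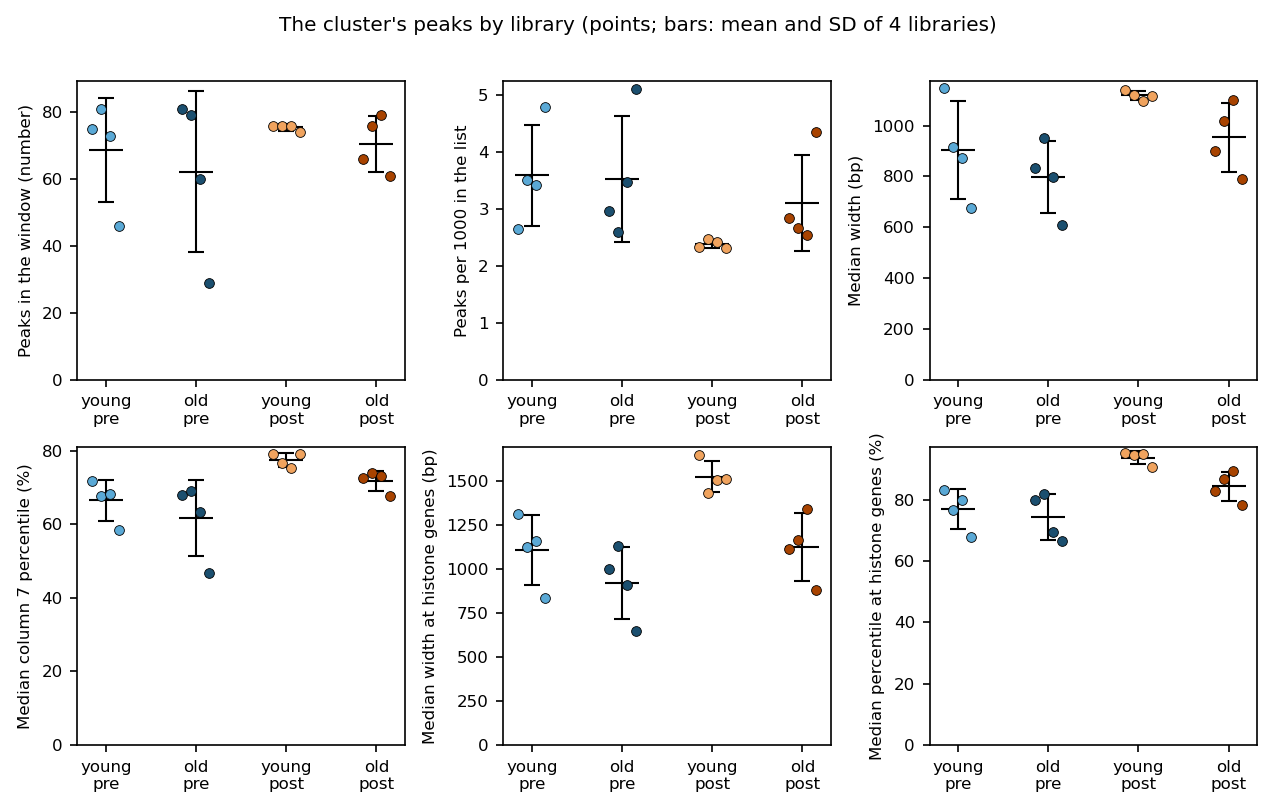
Values per library (points) with the mean and SD of 4 libraries, for the number of peaks in the window, their share per 1000 peaks, their median width in bp and median percentile, and the last 2 for peaks at histone genes. Young post libraries lie close together, with 74 to 76 peaks, while old pre libraries run from 29 to 81.

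The comparison of post with pre libraries asked what differed between HSCs recovered from recipients and the same donors' HSCs before transplantation. The peaks took a smaller share of the list and were wider and ranked higher afterwards. Their number was 65.5 ± 19.1 before and 73.0 ± 6.16 after (SD, n = 8), higher in 5 of 8 donors. The share fell from 3.56 ± 0.93 to 2.74 ± 0.67 peaks per 1000 (SD, n = 8), by 0.82 and in 7 of 8 donors (exact sign flips, two-sided, p = 0.0156, adjusted 0.0469). The median width rose from 850.0 ± 167 bp to 1036 ± 126 bp (SD, n = 8), by 186 bp and in 7 of 8 donors (exact sign flips, p = 0.0156, adjusted 0.0469). The median percentile rose from 64.2 ± 8.11 to 74.7 ± 3.81 (SD, n = 8), by 10.5 points and in 8 of 8 donors (exact sign flips, p = 0.0078, the smallest possible, adjusted 0.0469). All 3 calls were lost without the 3 shortest lists (-0.56 per 1000, 144 bp and 7.07 points over the 6 donors left, exact sign flips, adjusted p = 0.0938 each). They were also lost with all lists shortened to the shortest (0.59 per 1000, 264 bp and 6.38 points, adjusted p = 0.176, 0.117 and 0.352), where the share changed sign. With 7 pairs left, leaving out any 1 library other than old post 3 also took the adjusted p past 0.05, with differences of -0.95 to -0.58 per 1000, 149 to 213 bp and 9.03 to 11.4 points. With 6 or 7 pairs the smallest exact p is larger than with 8, so a call lost there is not by itself a lost difference.

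Within the window, peaks at histone genes were compared apart from the other peaks. Their median width was 1014 ± 211 bp before and 1324 ± 254 bp after (SD, n = 8), higher by 311 bp and in 8 of 8 donors, and their median percentile was 75.7 ± 6.70 before and 89.1 ± 6.09 after, higher by 13.4 points and in 8 of 8 donors (exact sign flips, p = 0.0078, the smallest possible, adjusted 0.0352 each). The other peaks of the window had a median width of 597 ± 155 bp before and 620.4 ± 77.8 bp after, and a median percentile of 47.0 ± 11.9 before and 47.6 ± 5.54 after (SD, n = 8), each higher in 4 of 8 donors. At tRNA genes alone the percentile was 46.0 ± 11.9 before and 44.4 ± 6.89 after. At gene ends outside the window the median width was 834 bp before and 934 bp after, and the median percentile 63.5 before and 68.8 after. The excess of the histone peaks over these gene ends was tested itself. It went from 180 bp to 390 bp (by 210 bp) and from 12.2 to 20.3 points (by 8.12), each in 8 of 8 donors (exact sign flips, p = 0.0078, adjusted over 6 tests 0.0234). Both calls were lost without the 3 shortest lists (217 bp and 8.53 points, exact sign flips, adjusted p = 0.0625 each). With fewer donors left the smallest exact p is larger there than with 8, so this loss is not by itself a lost difference. Both were also lost with lists cut to the length of the third shortest (146 bp and 9.37 points, exact sign flips, adjusted p = 0.188 and 0.0571).

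List percentiles were higher after transplantation for nearly every region that all libraries called, and post lists were mostly longer than pre lists. Of the 5262 regions of the genome called in all 16 libraries, 98.8% had a higher mean list percentile afterwards. Each of these regions was therefore ranked among the 5262 within its library. By this rank, 18 of the 19 histone regions stood higher after transplantation, with a median change of 11.4 percentile points, against 48.9% of all 5262 regions and a median of -0.11. Of all 22 regions of the window in this set, 20 stood higher. In single regions the change was 33.2 points at H2ac10/H3c8 (8.11 to 41.3), 28.9 at H2ac12/H2bc12 (33.8 to 62.7), 16.9 at H2ac15/H2bc15 (68.6 to 85.5) and 13.5 at H3c3/H2bc3 (76.4 to 89.9). Each of these 4 was higher in 8 of 8 donors (exact sign flips p = 0.0078). Adjusted over the 5262 regions this p is 0.169, and 0 regions of the window were called in either direction, as in the genome (0% of 5262 higher and 0% lower). On a scale that ends at 100, H4c1/H3c1/H1f1, H1f2 and H2ac6/H2bc4 had mean ranks of 97.4, 94.5 and 95.8 before and had little room to rank higher. They differed by 1.24, 0.84 and 1.61 points. H2bc6 was the only histone region of the 19 with a lower mean rank after (-0.79).

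The median rank of the 19 histone regions was 69.3, 76.0, 77.8 and 74.7 in young pre and 67.1, 84.1, 54.0 and 67.9 in old pre. It was 87.4, 88.4, 87.2 and 84.4 in young post and 74.5, 76.0, 86.9 and 83.8 in old post. It was higher after in 7 of 8 donors, by 12.2 points on average (spread of the donors' differences 11.5, SD), and the exception was old 2, at 84.1 before and 76.0 after. The rank by width was higher by 9.89 points on average, and in 7 of 8 donors. Old minus young was -6.19 points before (pooled SD 9.09), which became -1.44 without old pre 3 and -11.5 without old pre 2. It was -6.54 after (pooled SD 4.40), and -8.72 to -4.60 with each library left out in turn. These are descriptions of regions that share libraries, with no test.

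**Figure D4:**
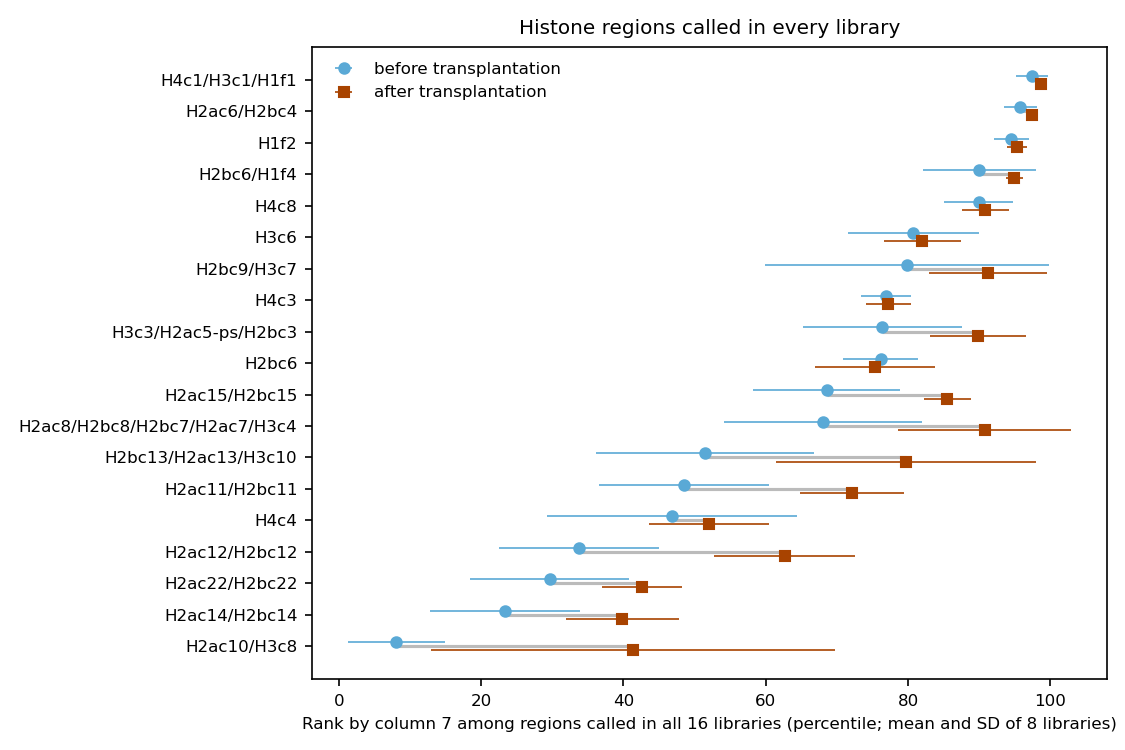
Rank by column 7 of the 19 histone regions among the 5262 regions called in all 16 libraries (percentile, mean and SD of 8 libraries), before (circles) and after transplantation (squares). The 3 regions at the top differ by 0.84 to 1.61 points, while of the 5 lowest before transplantation 4 stand higher by 12.9 to 33.2 points and H4c4 by 5.13.

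The last comparison took single regions and asked whether any was called more in 1 group. Each library was weighted by its overall odds of a call, and only regions with enough calls could be tested. Before transplantation, for old against young, 18 regions of the window were tested and 0 passed the adjusted threshold (0% of 9407 in the genome), with 0 at an unadjusted p under 0.05 (2.29% in the genome). After transplantation 6 were tested and 0 passed (0.465% of 5163), with 0 unadjusted (1.84%). With both stages pooled, 19 were tested and 0 passed (0.270% of 15182), with 0 unadjusted (4.56%). For post against pre, 19 were tested and 0 passed (0.402% of 15182), and 3 had an unadjusted p under 0.05 (5.62%). All 3 were called less after transplantation than the library weights give, as were 60 of the genome's regions that passed, against 1 called more. This test counts the libraries of a donor as independent. With the donor pairs kept as a replicate block, 0 regions of the window passed and 1 had an unadjusted p under 0.05. Fisher's exact test without weights also gave 0 adjusted calls in each comparison, and 0, 1, 0 and 1 unadjusted.

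The 3 regions with the smallest p for post against pre were at tRNA genes. The region of n-TIaat11 and n-TTagt4 (chr13:21855221-21856127), an isoleucine and a threonine tRNA gene, was called in 4 of 8 pre and 1 of 8 post libraries (exact conditional test, p = 4.7e-04, adjusted 0.0815). Its percentiles where called were 16.6 and 7.40 in young pre 1 and 3, 16.1 and 23.7 in old pre 1 and 2, and 6.21 in old post 3, all low in their lists. It passed when the regions tested were those in 3 or more libraries (exact conditional test, adjusted p = 0.0387), and without old post 3, the only post library that called it (adjusted p = 0.0356). The region of n-TSaga5 (chr13:21918762-21919495) was called in young pre 1, old pre 1 and 2 and old post 3 (exact p = 0.0088, adjusted 0.335), at percentiles of 6.90, 18.4, 29.1 and 6.45. The region of n-TTagt6 (chr13:23450259-23450829) was called in 3, 2, 4 and 1 libraries of young pre, old pre, young post and old post (exact p = 0.0408, adjusted 0.710). It also had the smallest p for old against young over both stages together (exact conditional test, p = 0.0512, adjusted 0.812). n-TSaga5 was next (p = 0.0564, adjusted 0.812), and then the region of n-TRtcg1 (chr13:23526245-23526842; p = 0.0953, adjusted 1.00). Before transplantation n-TRtcg1 and another n-TTagt6 region (chr13:23449187-23450039) tied at an exact p = 0.234 (adjusted 0.999), each in 2 young and 1 old pre libraries. This n-TTagt6 region was called in 3 young and 2 old post libraries (exact p = 0.413 for old against young post, adjusted 1.00).

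A region at the non-coding gene Gm11337, at the window's edge (chr13:23799361-23799773), was called in 4 of 4 young post libraries and in 0 of the other 12. Its percentiles were 9.87, 10.6, 13.7 and 15.6, low in all 4 lists, and its weighted p for old against young post was 0.347. Genome-wide, 1.56% of 32859 regions with a call after transplantation were in 4 of 4 young post and 0 of 4 old post libraries. The region of n-TSgct4 (chr13:23521821-23522062) was called in 0 of 8 pre, 4 of 4 young post and 1 of 4 old post libraries. That of Pom121l2 (chr13:21981096-21981860) was called in 0, 1, 4 and 1 libraries of young pre, old pre, young post and old post.

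Histone genes elsewhere and the genes that serve the cluster were also called in most libraries. Of 13 replication-dependent histone genes outside the window, 12 had a peak in all 16 libraries, and H2bu2 had one in 15. Of 10 replication-independent histone genes, 6 had one in all 16, with H1f10, a linker histone of its own locus, in 11. Of 16 factors for histone gene transcription and 3′ end processing, 11 were called in all 16, among them Npat, Casp8ap2 (FLASH), Hinfp and Slbp, which binds the stem-loop of histone mRNA. Lsm11, a subunit of the U7 snRNP, was called in 13. Per library, 12 to 13, 6 to 10 and 11 to 16 genes of the 3 lists were called. Among all coding genes other than the window's histone genes, 24.1% to 63.1% were called per library. At the replication-dependent genes outside the window, 0 regions could be tested in any of the 4 comparisons, so these comparisons say nothing about them. At replication-independent genes 3 to 5 regions were tested per comparison, and at the factors 1 to 7. None of those tested passed the adjusted threshold, which 0% to 0.465% of tested regions of the genome passed.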

How the data were processed

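Chromatin was profiled by ATAC-seq in 16 libraries. Per the submitters' processing notes, the authors used FastQC, MultiQC, Trim Galore and cutadapt on reads and Genrich for peaks on mm10, and the notes also name ChIPseeker, featureCounts and DESeq2. The aligner and its settings: not given in the sources used here, and neither are versions. The deposited narrowPeak lists were made per library: columns 5 and 7 are a score (column 7 an area, at least about 200), and columns 8 and 9 are −log10 p and −log10 q, none of them normalised between libraries. Reads per library were not used here, so no counting interval is given.

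The members and gene lists were chosen with earlier results of these data known. From the 387029 peaks, 393 on unplaced scaffolds (0.102%) were left out. Peaks overlapping by 1 bp were merged, and the peak with the largest column 7 value stood for a library in a region. Genes are RefSeq's (GRCm38.p6), and a gene was called by a peak within 1 kb. Share, median width and median percentile were compared by exact permutation (4 against 4 libraries) or sign flips within 8 donors, two-sided, with Benjamini-Hochberg adjustment over 9 tests. Regions in 4 to 12 of 16 libraries, or 3 to 5 of 8, were compared by an exact conditional test with library weights from a Rasch model over all regions, adjusted over the genome and checked on simulated data. The old against young test over both stages and the post against pre test of regions count the libraries of a donor as independent. Donors link the libraries by the series design. The correlation of pre and post deviations within a donor ran from -0.35 to 0.28.

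Regions were named by a rule: histone regions in all 16 libraries, the 3 widest, the 3 of highest median percentile and the 3 of smallest p per comparison. Others named were picked after their values were seen. Of the marker lists, 2 are not reported here. Computations used Python 3.11.15, numpy 2.4.6, pandas 2.3.3, scipy 1.17.1 and matplotlib 3.10.9.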

Additional observations from a re-analysis of the deposited data

Results flagged for a closer look

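Within groups of 4 libraries, 24 sets of values (6 measures in 4 groups) were searched for a library far from the other 3, and chance alone flags about 1 in 20. Of these, 3 were flagged. Old post 4 had the highest share of its list in the window, 4.35 peaks per 1000, against 2.55 to 2.83 in old post 1 to 3, and its list was the shortest of the group (14008 peaks). Young post 4 had the lowest number of peaks in its group, 74, against 76 in each of the other 3. It also had the lowest median percentile at histone genes, 90.6, against 94.5 to 95.2.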

How the results depend on the processing

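Of 427 alternatives over 28 results, 339 kept the direction and the side of the threshold. Leaving out each library in turn, the post minus pre difference ranged from -0.95 to -0.58 peaks per 1000, 149 to 213 bp and 9.03 to 11.4 percentile points. The direction held throughout, but with 7 pairs left the adjusted p passed 0.05 for every library left out except old post 3. For old minus young post the ranges were 0.30 to 0.90 per 1000, -215 to -111 bp and -6.52 to -4.36 points, and all 3 passed 0.05 without old post 3, while the share of 0.30 and the percentile of -4.36 were those without old post 4. For old minus young pre the share ranged from -0.58 to 0.34 (0.34, 0.13 and 0.25 without young pre 4, old pre 1 and old pre 2), the width from -181 to -24.1 bp, and the percentile from -7.37 to 0.34 (0.34 without old pre 4). The count of regions called for post against pre ranged from 0 to 1 (1 without old post 3, n-TIaat11/n-TTagt4).

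With lists shortened to the shortest, old minus young post was -0.044 per 1000, and post minus pre was 0.59 per 1000, 264 bp and 6.38 points. Old minus young post was then -328 bp and -13.9 points, against -165 and -5.75. Shortened to the third shortest, post minus pre was -0.36 per 1000, 239 bp and 9.17 points, and all 3 calls were lost (adjusted p = 0.117, 0.103 and 0.0857). Without the 3 shortest lists, chosen after seeing the data, it was -0.56, 144 bp and 7.07 points. At histone genes alone, old minus young was 0.19 per 1000 before transplantation, and 0.68 per 1000, -399.75 bp and -9.38 points after it. On shared transposition days old minus young pre was 1.09 per 1000. With area per base in place of area, the percentile differed by 1.24 points for old minus young pre and 11.4 for post minus pre (call lost, adjusted p = 0.0643), and with bases in place of peaks the post minus pre share was -0.47 (call lost, adjusted p = 0.183). The excess of histone peaks over gene ends elsewhere, with lists shortened to the third shortest, differed by -24.4 bp (old minus young pre), -343 bp (old minus young post), and 146 bp and 9.37 points (post minus pre), and without the 3 shortest lists by -148.5, -225 and 217 bp and 8.53 points, and these calls were lost. With each library left out it ranged from -149 to -123 bp, -284 to -204 bp, and 183 to 229 bp in width, and for old minus young post from -6.42 to -4.53 points. Where a call or a direction was lost, the cause was not tested.

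With no replicate block, post minus pre kept its values, -0.82 per 1000 (exact permutation, adjusted p = 0.102), 186 bp (0.0643) and 10.5 points (0.0112). With a replicate block on number for old against young, the smallest exact p of 4 pairs is 0.125 and no difference passed. The labels do not link an old to a young library of the same number, and the correlation of their deviations ran from -0.07 to 0.50. Under the replicate block 0 regions were called in each of the 4 comparisons. For post against pre, 1 region was called with regions in at least 3 libraries (n-TIaat11/n-TTagt4, adjusted p = 0.0387) and 1 with summits within 250 bp merged in place of peaks. The latter is the summit at the start of H3c10 (chr13:21717413-21717678), called in 7 of 8 pre and 3 of 8 post libraries (adjusted p = 0.0166). This counts summits, not peaks over the start. By the 1 kb rule H3c10 was called in 4 of 4 young post and 4 of 4 old post libraries. A peak covered its start in 15 libraries, with the summit at -1356 to -75 bp from it. List length limits all of these values, and the depth behind the lists is unknown.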
